A study of Rattus norvegicus with 8 samples.

Results

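Of the proteins that coat liver fat droplets and govern the release of fat from them, 10 genes were chosen by name: the CIDE genes Cidea, Cideb and Cidec, the perilipin genes Plin2, Plin3, Plin4 and Plin5, and Pnpla2, Abhd5 and G0s2 of lipolysis. Probes were found for 7 of the 10 through the RefSeq transcript that the array design gives for each probe, out of 15154 gene symbols with a probe on the array. These 7 genes had 8 probes, of which Cidea had 2. All 7 passed the filter on dim probes. Cideb, Plin3 and Plin4 matched no probe by accession and were not analysed here. Liver RNA came from adult male Sprague-Dawley rats that had eaten either a control diet (4 rats) or a diet with 50 mg/kg of the potassium salt of perfluorooctanesulfonate (PFOS), a fluorinated surfactant that persists in the body (4 rats), for 28 days. All animals were of 1 sex and 1 strain, and a single dose and a single time were measured. Each rat had its own array, on which liver RNA carried the dye Cy5 and a commercial mixture of rat RNA, the same on every array, carried Cy3.

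A lipid droplet is a core of triglyceride and sterol ester under a single layer of phospholipid, and proteins on that layer decide how the core grows and how fast it is broken down. Perilipins shield the core from lipases. CIDE proteins gather where droplets touch and let lipid pass from the smaller to the larger droplet. Pnpla2 encodes adipose triglyceride lipase, which takes the first fatty acid from triglyceride. Abhd5 encodes its activating partner, and G0s2 encodes its protein inhibitor. Many of these genes are known targets of the fatty acid receptors of the PPAR family.

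In the livers of PFOS rats, Cidea rose about 7.05-fold and G0s2 fell 1.92-fold, and these were the 2 members of 7 that passed the test (limma, Benjamini-Hochberg adjusted p under 0.05 over all 15204 genes and unnamed features). Over all tested genes 604 passed, or 3.97%, with 1.83% higher and 2.14% lower in PFOS. Plin2 was 1.58-fold lower and Pnpla2 1.26-fold higher in PFOS, with groups that did not overlap, but neither passed after adjustment. Cidec, Plin5 and Abhd5 had overlapping groups. Groups did not overlap for 4 of the 7 members, and for 12.8% of all tested genes. The members were chosen with earlier results of these data known, so counts set beside such shares are no independent test. The median change of the 7 members was 0.044 on the log2 scale, beside -0.011 for all tested genes, and 4 of 7 members, against 47.7% of all tested genes, had values above 0.

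**Figure D1:**
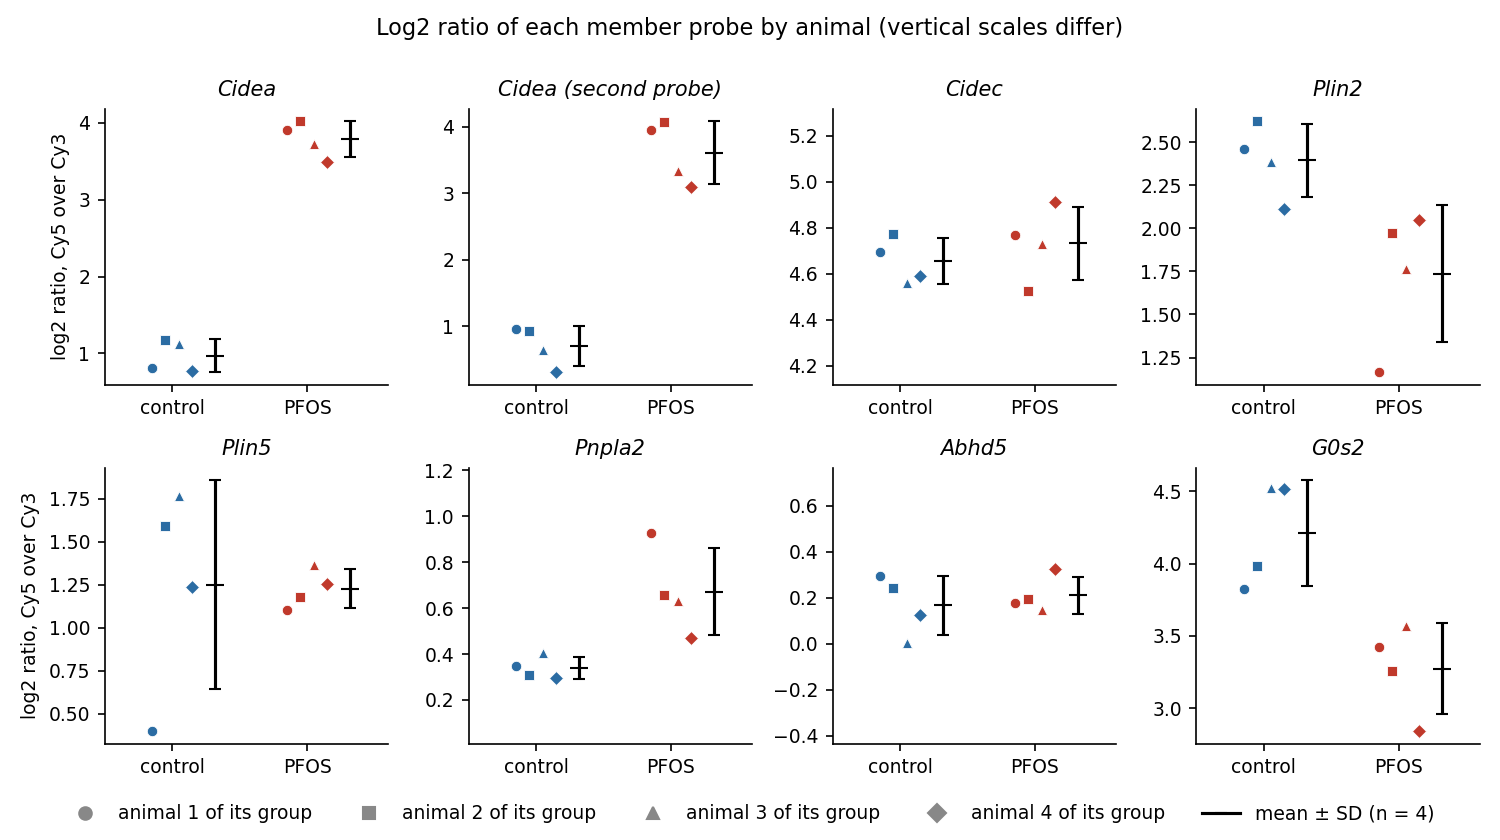
Log2 ratio of liver RNA over reference RNA (vertical axis, scale differs between panels) for the 8 member probes in each of 4 control and 4 PFOS rats, with the group mean and SD as a bar. Both Cidea probes lie between 3.09 and 4.07 in PFOS rats and between 0.32 and 1.18 in control rats, and the Cidec, Plin5 and Abhd5 groups overlap.

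The arrays shared 1 slide and 1 scan day. The 4 arrays of the first slide row, 2 per diet, were brighter, with median Cy5 spot signals of 154.5 to 160, than the 4 of the second row, again 2 per diet, at 116 to 138, so the change of each member is also given by row. A local background of 71 to 75 lay under these signals. In Cy5, 50.4% to 59.1% of probes stood well above background. All 7 hepatocyte markers with a probe (Alb, Ttr, Tf, Apoa1, Serpina1, Tat and Hnf4a) were well above background on 8 of 8 arrays. Of the adipocyte markers, which matter because fat cells hold most of the body's droplet proteins, Adipoq, Lep and Ucp1 were well above background on 0 of 8 arrays. Retn, Cfd and Fabp4 were measured, and their summed normalised Cy5 signal was 4692 to 6125 in control and 4060 to 5300 in PFOS rats. None of the 3 passed the test, nor did any of the tested hepatocyte (7), stellate cell (6), Kupffer cell (5), endothelial (3) or bile duct (3) markers in the ratio. Changes were below 0 for 3 of 3 adipocyte, 5 of 7 hepatocyte, 5 of 6 stellate, 5 of 5 Kupffer, 3 of 3 endothelial and 0 of 3 bile duct markers. The endothelial median was -0.48, with summed Cy5 of 6567 to 12049 in control and 4915 to 7175 in PFOS rats. A shift in cell mix was not tested. In Cy5 alone 1 of the 7 hepatocyte markers passed, Apoa1, which fell by 1.79 on the log2 scale (limma adjusted p = 0.00018) and was at -0.38 in the ratio (limma adjusted p = 0.12). In whole liver RNA, fewer cells of a type and less RNA per cell cannot be told apart.

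The bases just before the start sites of 3 members are shown because Cidea and G0s2 are the members that passed, and Plin2 is the perilipin with non-overlapping groups. The sequences are RefSeq's for the GRCr8 assembly, 250 bases each, read 5′ to 3′ on the gene's strand and ending at the base before the start. Capitals mark any of 5 short motifs searched on both strands. These were AGGTCA, which many nuclear receptors read, the direct repeat of those letters with any 1 base between (DR1, the form that PPARs read), CACGTG of E-box factors, TATAAA of the TATA box and CCAAT of the factor NF-Y. A match to the direct repeat also counts as a match to the single form. The Cidea window is chr18:63164567-63164816 on the plus strand, that of G0s2 is chr13:107335949-107336198 on the minus strand, and that of Plin2 is chr5:106229019-106229268 on the minus strand, the one of its 2 windows that holds a match.
Cidea: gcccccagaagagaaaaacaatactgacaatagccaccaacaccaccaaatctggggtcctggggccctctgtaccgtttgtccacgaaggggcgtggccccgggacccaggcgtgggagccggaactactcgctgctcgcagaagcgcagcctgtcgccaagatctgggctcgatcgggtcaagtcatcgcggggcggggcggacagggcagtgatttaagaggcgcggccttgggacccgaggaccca
G0s2: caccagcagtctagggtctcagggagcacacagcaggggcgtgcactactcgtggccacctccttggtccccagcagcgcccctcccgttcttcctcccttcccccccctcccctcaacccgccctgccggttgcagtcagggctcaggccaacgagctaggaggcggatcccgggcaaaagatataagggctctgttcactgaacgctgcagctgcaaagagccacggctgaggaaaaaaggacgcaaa
Plin2: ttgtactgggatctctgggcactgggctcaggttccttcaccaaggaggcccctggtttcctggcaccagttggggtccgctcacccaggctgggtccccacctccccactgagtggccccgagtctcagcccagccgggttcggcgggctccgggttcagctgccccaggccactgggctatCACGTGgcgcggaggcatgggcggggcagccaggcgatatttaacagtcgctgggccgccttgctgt
The Cidea and G0s2 windows held none of the 5 motifs. The Plin2 window held CACGTG, the letters read by E-box factors such as USF, at positions -67 to -62 from the start, and 5.59% of 33469 rat promoter windows of this length held it. AGGTCA was found in 2 of the 15 member windows, those of Plin5 and Abhd5, and in 14.1% of all windows. Of these 15, Plin4 has 5, most of them nearly the same stretch, so some bases are counted more than once. CCAAT was in 2 of the 15, those of Plin3 and Plin5, and in 34.0% of all windows. TATAAA was in 0 of the 15 and in 12.9% of all windows. The full direct repeat was in none of the 15 windows of the 10 members and in 0.0508% of all windows. The Cidea window had 63.6% G and C and the G0s2 window 62.8%, above the median of 51.2% over all windows. Members that did not pass had such windows too, among them Abhd5 at 74.4%, Plin2 at 67.2% in the window shown and Pnpla2 at 63.6%. The Cideb window, at 48.8%, and the other Plin2 window, at 47.2%, lay below the median. These are matches of letters in a short stretch, and binding was not measured here.

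Cidea, the CIDE gene best known from brown fat and from livers that are storing fat, had the largest change of the members. On the probe that stood for the gene its log2 ratio was 0.81, 1.18, 1.12 and 0.77 in control rats 1 to 4, and 3.91, 4.02, 3.72 and 3.49 in PFOS rats 1 to 4. Every PFOS rat was thus above every control rat, with a gap far wider than the spread within either group. The means were 0.97 ± 0.21 (SD, n = 4) and 3.79 ± 0.23 (SD, n = 4). The log2 change was 2.82 (SE 0.14, limma adjusted p = 2.47e-05), a 7.05-fold rise with a 95% interval of 5.65-fold to 8.80-fold. By its p, Cidea stood at place 4 of 15204.

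The second Cidea probe, which binds the same RefSeq transcript, also rose. Its log2 ratios were 0.96, 0.94, 0.64 and 0.32 in control rats 1 to 4 and 3.95, 4.07, 3.34 and 3.09 in PFOS rats 1 to 4. Its change was 2.90 (SE 0.23, limma adjusted p = 0.00041 over 16952 probes, of which 3.74% passed). The spots also show the rise before any normalisation. The median Cy5 brightness of the first probe was 410, 528, 404 and 261 in control rats 1 to 4, over a local background of 71.5 to 75, and 4101, 4577, 1928 and 1770 in PFOS rats 1 to 4. Control livers therefore carried a Cidea signal too, well above background on 4 of 4 arrays.

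By slide row, the log2 change of Cidea was 2.97 in the first and 2.66 in the second. Leaving out any 1 array gave changes of 2.74 to 2.92, all of which passed. Over 25 other settings of the ratio it was 2.66 to 2.97, with limma adjusted p-values from 9.4e-06 to 0.020. These settings include the fits within a row and without 1 array, and both ends of the range are the row fits. In the Cy5 channel alone the change was 3.01 (SE 0.15, limma adjusted p = 1.36e-05), or 8.06-fold. The Cy3 reference channel of the same spots was 0.14 higher on the PFOS arrays (limma adjusted p = 0.89) without overlap, as for 2.41% of genes in that channel, and its part in the ratio was not tested. The second probe rose by 2.73 in Cy5 alone (SE 0.21, limma adjusted p = 0.00022 over probes), so Cy5 gave the larger value than the ratio for the first probe and the smaller for the second. The 2 spots of the first probe on an array differed by at most 0.26 in the log2 ratio, and the second probe had 1 spot.

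Cidec, the CIDE gene also called Fsp27 and the one tied to large droplets in white fat, is named beside Cidea as its close relative. Its log2 ratio was 4.70, 4.78, 4.56 and 4.59 in control rats 1 to 4 and 4.77, 4.53, 4.73 and 4.91 in PFOS rats 1 to 4. The groups overlapped, and both the lowest and the highest value were in PFOS rats. PFOS differed from control by 0.078 on the log2 scale (SE 0.10, limma adjusted p = 0.71), and its 95% interval ran from 0.905-fold to 1.23-fold. An increase of the size seen for Cidea lies outside this interval. In the first slide row Cidec was at -0.088 and in the second at 0.24, and in Cy5 alone at 0.17 (limma adjusted p = 0.30).

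Plin2, the perilipin found on droplets of nearly all cells and the main one of hepatocytes, was lower in PFOS livers. Its log2 ratio was 2.46, 2.62, 2.38 and 2.11 in control rats 1 to 4 and 1.17, 1.97, 1.76 and 2.05 in PFOS rats 1 to 4. All PFOS values lay below all control values, but PFOS 4 and control 4 were only narrowly apart and PFOS 1 was well below the rest. The log2 change was -0.66 (SE 0.19, limma adjusted p = 0.10), which did not pass, with a 95% interval of 0.470-fold to 0.858-fold before adjustment for the number of genes. The second slide row gave -0.34 and the first -0.97. In Cy5 alone it was -0.66 (limma adjusted p = 0.061), and it passed there without PFOS 4, at -0.77 (limma adjusted p = 0.039), in 1 of 23 settings. Its spots were bright, at 14682 to 32020 in control and 10952 to 18784 in PFOS rats, and none was saturated.

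Plin5, the perilipin of oxidative tissues that ties droplets to mitochondria, was near the limit of detection. In Cy5 its probe was well above background on 3 of 4 control arrays and 4 of 4 PFOS arrays. In the Cy3 reference it was so on 0 of 4 control and 1 of 4 PFOS arrays, so the ratios below rest on a reference near background. The Cy5 brightness was 89 to 159.5 over a background of 69.5 to 76. The log2 ratio was 0.40, 1.59, 1.77 and 1.24 in control rats 1 to 4 and 1.10, 1.18, 1.37 and 1.25 in PFOS rats 1 to 4. Control 1, the array on which the probe was dim, was the lowest, and the PFOS values lay inside the control range. The difference was -0.023 on the log2 scale (SE 0.26, limma adjusted p = 0.97), with a 95% interval of 0.659-fold to 1.47-fold before adjustment for the number of genes. Changes within these bounds are compatible with the values, and the bounds are not a limit of detection. Without control 1 the change was -0.31 (limma adjusted p = 0.30). By slide row it was 0.15 in the first and -0.19 in the second. The direction turned in 6 of 24 settings for the ratio.

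**Figure D2:**
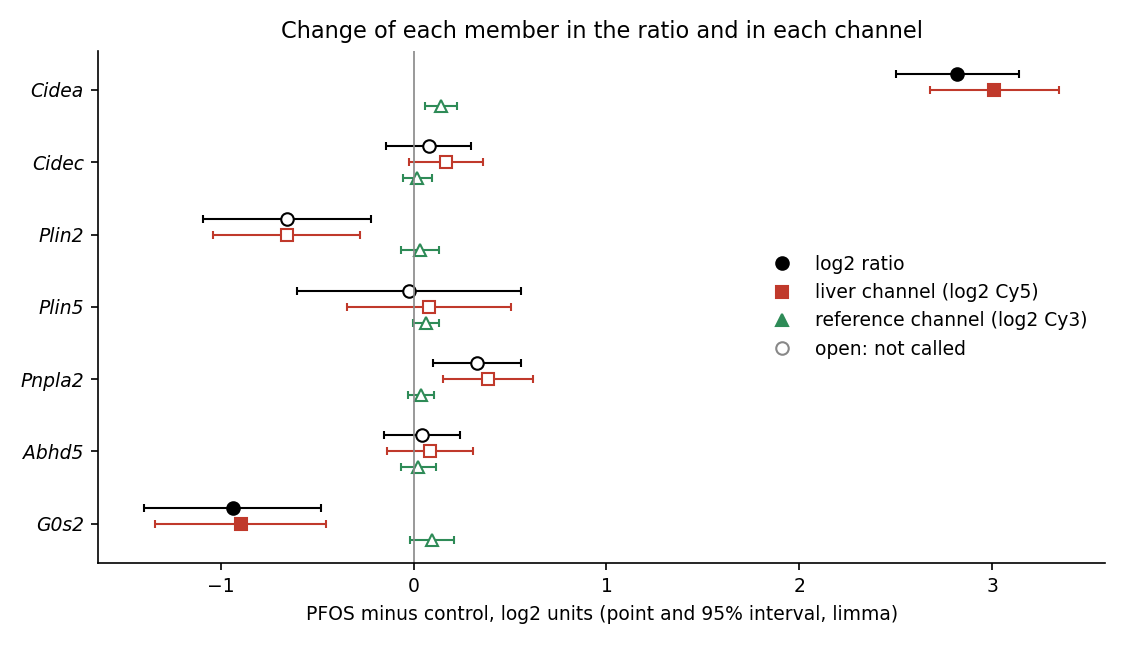
Difference between PFOS and control on the log2 scale (horizontal axis) with its 95% interval for the 7 members, in the log2 ratio, the liver channel (Cy5) and the reference channel (Cy3). Filled points passed the test. The ratio and the liver channel lie close together for each member, while the reference channel lies between 0.020 and 0.14.

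G0s2, the inhibitor of adipose triglyceride lipase, fell. Its log2 ratio was 3.82, 3.98, 4.52 and 4.52 in control rats 1 to 4 and 3.43, 3.26, 3.57 and 2.84 in PFOS rats 1 to 4. All PFOS rats lay below all control rats. The means were 4.21 ± 0.36 (SD, n = 4) and 3.27 ± 0.31 (SD, n = 4). The log2 change was -0.94 (SE 0.20, limma adjusted p = 0.039), a 1.92-fold fall with a 95% interval of 0.380-fold to 0.717-fold. G0s2 also fell in Cy5 alone, at -0.90 (SE 0.20, limma adjusted p = 0.036), where 4.78% of genes passed.

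The G0s2 call sits close to the threshold. Its change was -0.56 within the first slide row and -1.32 within the second, where control rats 3 and 4 had the highest values. It did not pass without control 2, control 3, control 4 or any 1 PFOS array (-1.07 to -0.79 on the log2 scale when each of the 8 was left out in turn, limma adjusted p = 0.038 to 0.096), nor with slide column as a block (limma adjusted p = 0.075). Its direction was downward in all 25 other settings of the ratio. The spots were bright and unsaturated, at 44345, 47950, 56866 and 46294 in control rats 1 to 4 and 36885, 30446, 24570 and 15336 in PFOS rats 1 to 4. The groups were apart in this brightness too, but it was not normalised and whole arrays differed in brightness. In the second row the median Cy5 of the array was 138 and 122 for control 3 and 4, and 116 and 119 for PFOS 3 and 4.

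Pnpla2, which encodes the lipase that G0s2 inhibits, was higher in PFOS livers by a small amount that did not pass. Its log2 ratio was 0.35, 0.31, 0.40 and 0.30 in control rats 1 to 4 and 0.93, 0.66, 0.63 and 0.47 in PFOS rats 1 to 4. The control rats were close together and every PFOS rat was above them. The log2 change was 0.33 (SE 0.10, limma adjusted p = 0.12), 1.26-fold with a 95% interval of 1.07-fold to 1.47-fold before adjustment. It was 0.46 in the first slide row and 0.20 in the second. In Cy5 alone it was 0.38 (limma adjusted p = 0.071), and it passed in that channel without PFOS 4, at 0.45 (limma adjusted p = 0.043), in 1 of 23 settings.

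Abhd5, the activating partner of the lipase, did not pass. Its log2 ratio was 0.30, 0.24, 0.0042 and 0.13 in control rats 1 to 4 and 0.18, 0.19, 0.15 and 0.33 in PFOS rats 1 to 4, and the groups overlapped. Its difference was 0.044 on the log2 scale (SE 0.088, limma adjusted p = 0.82), with a 95% interval of 0.898-fold to 1.18-fold. By slide row it was -0.083 in the first and 0.17 in the second. A 1.26-fold difference, the size measured for Pnpla2, lies outside this interval. The Pnpla2 interval, 1.07-fold to 1.47-fold, overlaps it, and a difference between the 2 genes was not tested.

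Within the PFOS group the members ranked the rats in different orders. PFOS 1 had the lowest Plin2 and the highest Pnpla2 of its group. PFOS 4 had the lowest G0s2, Cidea and Pnpla2 and the highest Plin2, Cidec and Abhd5. With 4 rats a group these orders are given as values and were not tested.

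**Figure D3:**
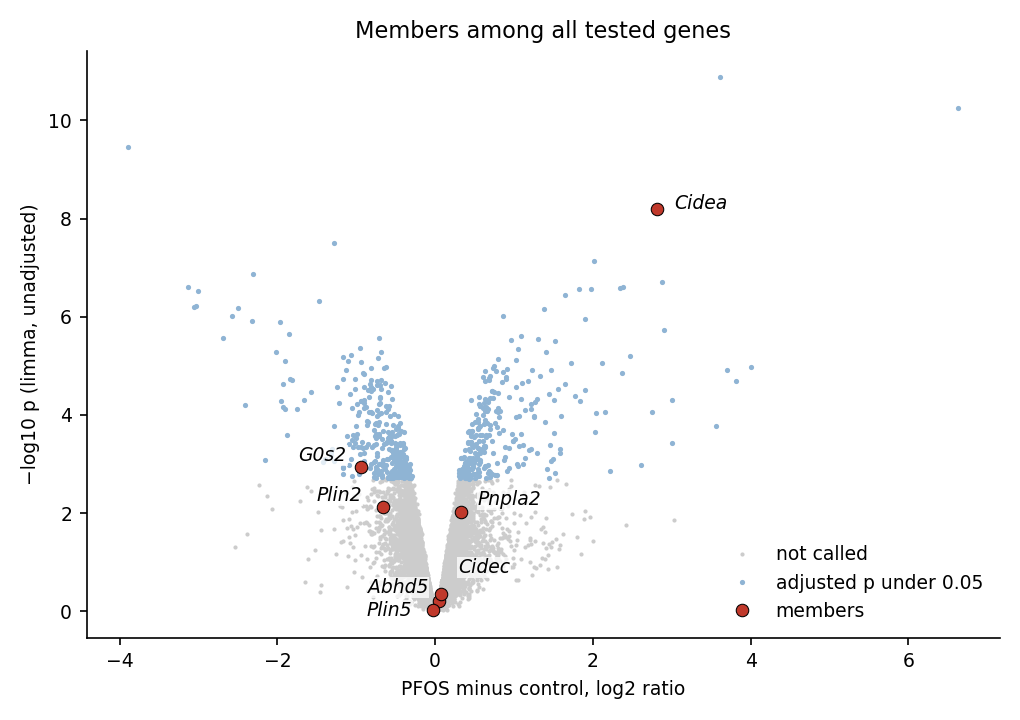
Change in log2 ratio (horizontal axis) against −log10 of the unadjusted limma p (vertical axis) for 15204 genes and unnamed features, with those that passed the adjusted threshold in blue and the 7 members in red. Cidea stands at place 4 by p, G0s2 at place 464 of 15204, and Plin2 and Pnpla2 lie below the threshold.

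To show which genes had profiles most like those of the 2 members that passed, each gene's log2 ratios were centred on its control mean and compared over the 8 arrays among 9618 genes with a symbol. Nearest to Cidea was the carboxylesterase Ces2c (root mean square difference 0.27). The next places went to the cytochrome P450 Cyp2b21 and to Colq, the collagen tail of acetylcholinesterase, but on the 4 control arrays Cyp2b21 was well above background on 0 and Colq on 1. Both passed the filter on dim probes through the PFOS arrays, and their fitted change ran from 1.86 to 6.83 for Cyp2b21 and from 1.43 to 4.54 for Colq over the settings of the ratio, so their distance from Cidea is not a measured one. Nearest to G0s2 were Nrtn, a growth factor of the RET pathway (0.13), Arhgap24 (0.23) and Fn3k, a kinase of sugar-modified proteins (0.24). Of 25 other settings of the ratio, Nrtn did not pass in 7, Arhgap24 in 3 and Fn3k in 18. The change of Fn3k ran from -0.90 to -0.072 over the settings, so its place near G0s2 depends on the processing. Since all 8 arrays enter the measure, a gene with a like difference between the diets comes out near.

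Other genes of droplet breakdown were taken from a list of 17 enzymes and partners of lipolysis. Of these 10 were tested, none rose, 2 fell and 8 did not pass, where 3.97% of all tested genes passed and 2.14% fell. Groups did not overlap for 4 of the 10 (Abhd6, Ces1d, Aqp9 and Prkaca), against 12.8% of all tested genes, and the median change was -0.0070, against -0.011. Aqp9, the channel through which glycerol enters hepatocytes, fell by 0.75 on the log2 scale (SE 0.13, limma adjusted p = 0.017), and its call was lost without PFOS 3, at -0.71 (limma adjusted p = 0.052). Its log2 ratio was 4.42, 4.55, 4.60 and 4.88 in control rats 1 to 4 and 4.17, 3.85, 3.74 and 3.68 in PFOS rats 1 to 4, without overlap. Prkaca, a catalytic subunit of the kinase that switches on lipolysis in fat cells, fell by 0.62 (SE 0.093, limma adjusted p = 0.0078), but a further Prkaca probe was at -0.064 (limma adjusted p = 0.75), so its 2 probes disagree. Prkaca was at 1.15, 1.23, 1.09 and 1.31 in control rats 1 to 4 and at 0.49, 0.44, 0.75 and 0.63 in PFOS rats 1 to 4 on the probe that fell. Lipe, which encodes hormone-sensitive lipase, was well above background on 3 of 8 arrays and was not tested. Ces1d, a carboxylesterase that acts on stored triglyceride, was at 0.34 in the ratio (limma adjusted p = 0.21) and rose by 1.39 in Cy5 alone (limma adjusted p = 0.012). It was picked out after its values were seen, and relatives of the Ces1 family may bind its probe.

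**Figure D4:**
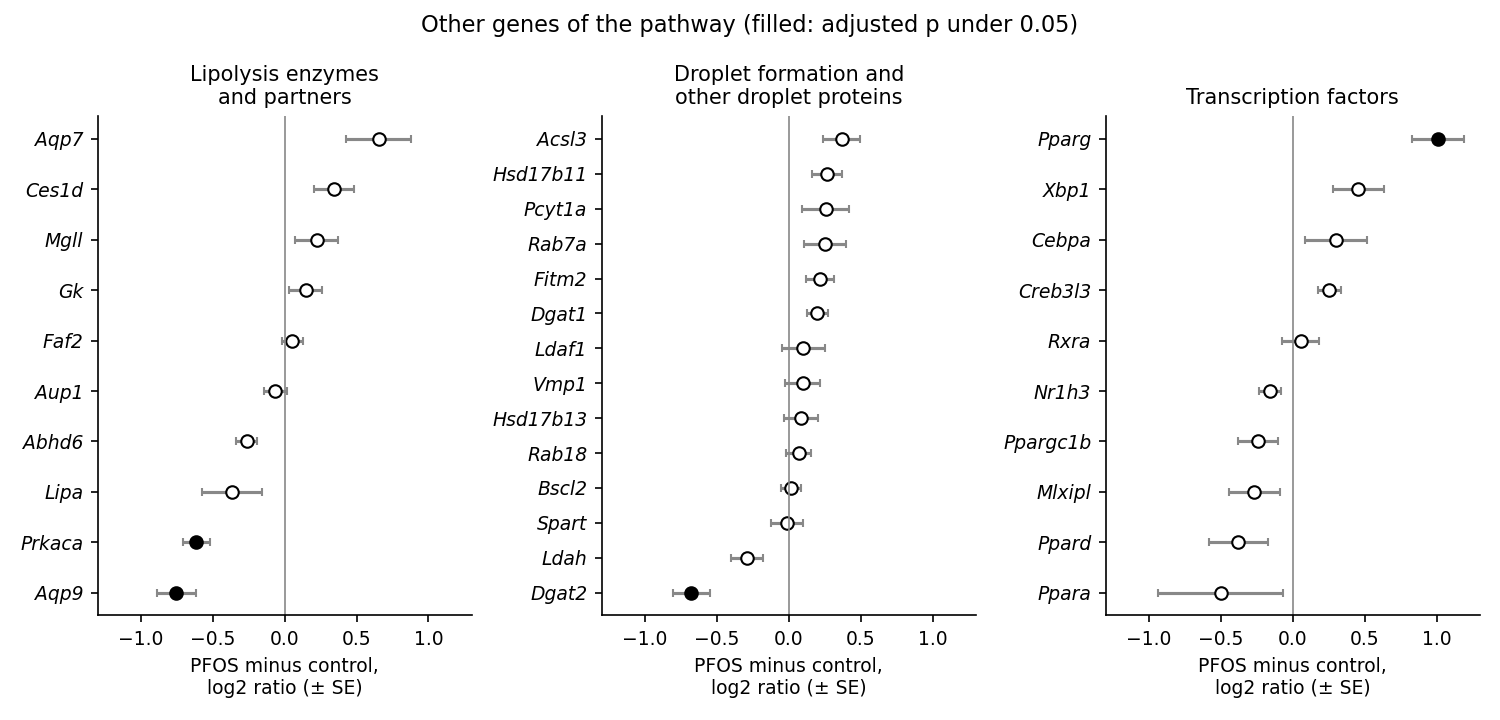
Change in log2 ratio, PFOS minus control, with its standard error for the tested genes of 3 lists of droplet biology (10, 14 and 10 genes). Filled points passed the test over all genes: Aqp9, Prkaca and Dgat2 below 0 and Pparg above 0.

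Of 18 listed proteins of droplet formation, 14 were tested, none rose and 1 fell, beside 3.97% of all tested genes that passed and 2.14% that fell, and the median change was 0.099. Groups did not overlap for 2 of these 14, against 12.8% of all tested genes. Dgat2, which makes the triglyceride that enlarges droplets, fell by 0.68 (SE 0.13, limma adjusted p = 0.023), from 4.53, 4.74, 4.20 and 4.22 in control rats 1 to 4 to 3.86, 3.75, 3.60 and 3.78 in PFOS rats 1 to 4. It did not pass when control 1 (-0.64), PFOS 2 (-0.68) or PFOS 3 (-0.63) was left out. Of 13 listed transcription factors known to act on droplet genes, 10 were tested, 1 rose and none fell, beside 3.97% of all tested genes that passed and 1.83% that rose, and the median change was -0.052. Groups did not overlap for 2 of these 10. Pparg, the receptor that drives droplet genes in fat cells, rose by 1.01 (SE 0.18, limma adjusted p = 0.018), with log2 ratios of -2.27, -1.73, -1.82 and -1.99 in control rats 1 to 4 and -1.18, -0.45, -0.96 and -1.19 in PFOS rats 1 to 4. Its groups did not overlap. With slide column as a block, Prkaca, Dgat2 and Pparg did not pass (limma adjusted p = 0.052, 0.080 and 0.074), and with median centring or scaling between arrays Aqp9 and Dgat2 did not. Ppara, the form of the receptor that prevails in hepatocytes, was at -0.50 (SE 0.44, limma adjusted p = 0.56), and is named beside Pparg after its values were seen.

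**Figure D5:**
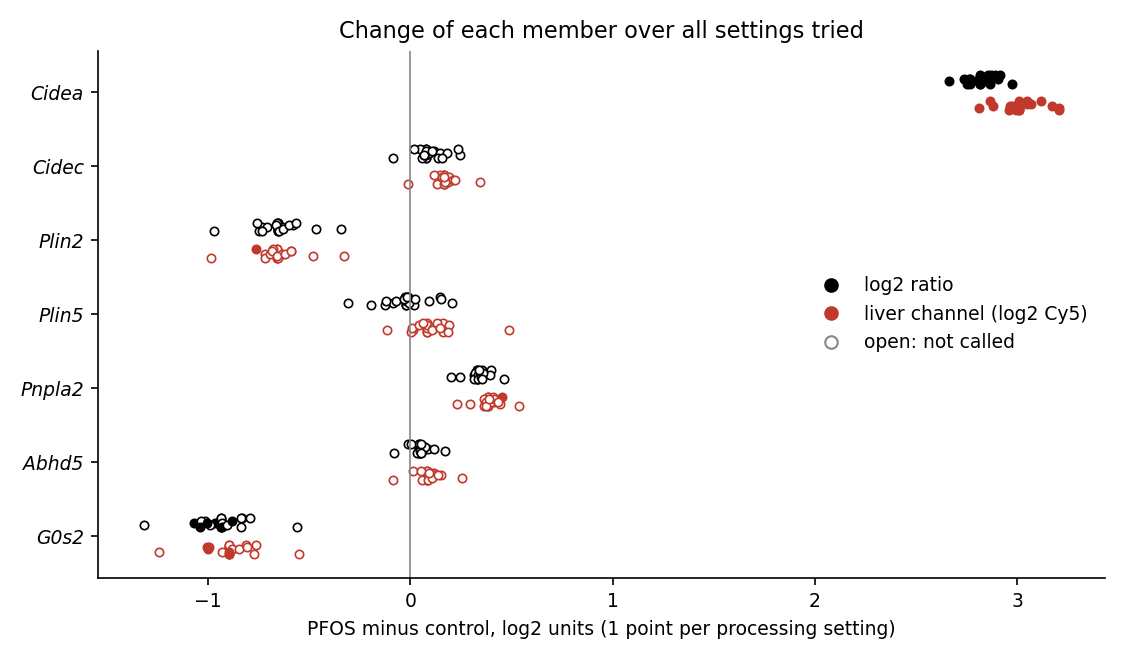
Difference between PFOS and control on the log2 scale (horizontal axis) for each member under every setting tried, of processing or of the arrays kept, 1 point per setting, for the log2 ratio (black) and the Cy5 channel alone (red). Filled points passed the test. Cidea is filled throughout, G0s2 in part, and Plin5, Abhd5 and Cidec have values on both sides of 0.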

How the data were processed

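Liver RNA of 4 control and 4 PFOS rats was measured on Agilent rat arrays, each rat against a common reference RNA. Groups came from the labels, and replicate numbers, given in accession order, pair nothing. Spot intensity on a linear scale was taken from the deposited scanner files, which name Feature Extraction 10.7.3.1, Agilent's own program. Values in log2 form are also in a table the authors deposited, with no description of how it was made in the sources used here. They correlated at 0.995 to 0.997 with loess-normalised log2 ratios of Cy5 over Cy3 without background subtraction, which gave its scale and direction, and its centring stays unknown, with medians of -0.061 to -0.048.

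Median signals were background-corrected (limma 3.58.1, normexp, offset 50), normalised by loess with control spots at weight 0, and averaged over spots without outlier flags (733 to 991 flagged per array). A probe counted as well above background where at least 50% of its spots were, and 16952 of 30367 probes were so in Cy5 on at least 4 of 8 arrays. The brightest probe stood for a gene, named by accession through RefSeq's gene table for GRCr8, which left 15204 genes and unnamed features, 9620 with a symbol. The groups were compared with limma in R 4.3.3 (two-sided, Benjamini-Hochberg). Cy5 and Cy3 alone were quantile normalised. In simulated data of 15200 genes with each gene's spread on these arrays, changes of 0.5 and 1 on the log2 scale were called in 46% and 84% of 50 genes each. The noise was drawn independently for each gene and array, without slide row or column effects. Only 50 genes were changed at each of the sizes 0.5, 1, 2 and 3, and the adjusted threshold depends on how many genes change. The shares for the real arrays can therefore differ. The number of arrays limits the precision.

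Named genes were the members, the 3 nearest profiles of each member that passed, and the genes of each list that passed. Members, lists and rules were chosen with earlier results of these data known.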

Additional observations from a re-analysis of the deposited data

Results flagged for a closer look

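For the 8 member probes, the ratio and both channels were searched for a single array far from the others of its group, 48 groups of 4 values in all, of which chance alone would mark about 1 in 20. A single value stood apart. The Cy3 reference signal of Cidea on PFOS 2 was 9.77 on the log2 scale, and the gap to its nearest neighbour took up 0.926 of the group's range. The other 3 PFOS arrays were at 9.62, 9.63 and 9.62. This array also had the highest Cidea ratio of its group, at 4.02.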

How the results depend on the processing

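Cidea rose and passed in all settings of the ratio and of Cy5 alone, and G0s2 fell in all of them but passed in 13 of 25 other settings of the ratio and 12 of 23 of Cy5. The ratio called 604 genes, 344 with a change of at least 1.5-fold required as well, 268 with slide column as a block, 239 with median centring, 384 with scaling between arrays, 93 and 32 within the first and second slide row, and 350 to 519 without 1 array. Cy5 alone called 726 genes, 356, 445, 113 and 27 under the same fold, column and row settings, 407 with scaling to the 75th percentile and 405 to 668 without 1 array. Of the 2 members called, 1 remained, Cidea, in the ratio with slide column as a block, within either row, with normexp at offset 0 and with scaling between arrays. In Cy5 alone 1 remained, again Cidea, with no filter on dim probes, slide column as a block, either row, processed signals and scaling to the 75th percentile. Without 1 array, 1 to 2 members were called in the ratio and 1 to 3 in Cy5. Within the first row alone, the ratio of Abhd5 turned to -0.083, of Cidec to -0.088 and of Plin5 to 0.15, and Cy5 alone gave -0.086 for Abhd5 and -0.011 for Cidec. Plin5 was at 0.21 with processed signals and 0.021 with scaling between arrays, and the Ces1d ratio at -0.017 with processed signals. Without 1 array, Abhd5 ranged from -0.010 to 0.087 and Plin5 from -0.31 to 0.15 in the ratio, and Plin5 from -0.11 to 0.19 in Cy5. None of the turned values passed. Fewer arrays enter the fits within rows and without 1 array; the cause of the other shifts was not tested. No paired analysis was possible because the replicate numbers only name animals.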
